A study of Mus musculus with 18 samples.

Results

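Adipocytes of inguinal white adipose tissue (iWAT, a subcutaneous depot) were compared with adipocytes of epididymal white adipose tissue (eWAT, a visceral depot) across all genes. The comparison used the 12 samples whose source is given as iWAT adipocytes (6) or eWAT adipocytes (6), of 18 samples in all. The other 6, of whole brown adipose tissue (BAT), entered no test here. All 12 samples came from wild-type male C57BL/6 mice, 16 weeks old, that were kept on a high-fat diet for 12 weeks and carried no transgene. The sources differ on the substrain (C57BL/6, C57BL/6J or C57BL/6NTac), and the general start of the diet at 6 weeks of age does not add up with this age. No lean mice were analysed here. One field of the labels gives regular chow instead, against the titles and the protocol. Both depots were taken from mice numbered 1, 2, 3, 4, 5 and 16 in the sample titles. Mature adipocytes were obtained by digesting the fat with collagenase and letting the fat-filled cells float, so each sample is a bulk preparation that can hold other cells attached to adipocytes. RNA was sequenced, and the number of reads and the RPKM (a read count divided by transcript length and library total) of each transcript row were used.

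White adipocytes store triglyceride in a single large droplet and release it as fatty acids, and they secrete hormones such as leptin and adiponectin. The inguinal and epididymal depots arise from different mesenchyme, and developmental transcription factors of the Hox and T-box families are known to mark that origin in adult fat. In obese mice, epididymal fat is known for macrophages that gather around dying adipocytes, whereas inguinal fat can form beige adipocytes that express uncoupling protein 1.

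The 12 libraries had 26768529 to 30166441 reads on rows in iWAT adipocytes and 24655056 to 37438994 reads in eWAT adipocytes. Of 52093 gene symbols, 19623 had a mean of at least 10 reads and were tested. A gene with almost no reads in one depot could reach this mean only through the other, which fixed the direction of its difference. A gene was called different at an adjusted p of at most 0.05 in edgeR's quasi-likelihood test. At this threshold 13454 genes were called, which is 68.6% of the genes tested. Of these, 6689 (34.1% of the genes tested) were higher in iWAT adipocytes and 6765 (34.5%) were higher in eWAT adipocytes. In 43.9% of the genes tested, the 6 values of one depot lay entirely above the 6 values of the other. Most calls were small, since 8562 of the called genes differed by less than 1 log2 unit (2-fold). Called genes that differed by at least 1 log2 unit numbered 2552 in iWAT adipocytes (13% of the genes tested) and 2340 in eWAT adipocytes (11.9%). The median log2 fold change over all genes tested was 0.00143, and the median absolute log2 fold change was 0.47. Every count given for a gene list is to be read against these shares, because 34.1% and 34.5% of all genes tested were called in the respective directions.

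Genes at least 2-fold higher in iWAT adipocytes made up 16.3% ± 1.20 (SD, n = 6) of the summed RPKM in iWAT adipocytes and 6.68% ± 2.19 in eWAT adipocytes. Genes at least 2-fold higher in eWAT adipocytes made up 6.02% ± 0.954 in iWAT adipocytes and 19.7% ± 3.58 in eWAT adipocytes. The samples were sequenced in a pair of lanes that both held both depots, but unevenly. Lane 1 held iWAT adipocytes of mice 1 and 3 and eWAT adipocytes of mice 2, 3, 4 and 5. Lane 2 held iWAT adipocytes of mice 2, 4, 5 and 16 and eWAT adipocytes of mice 1 and 16. Each count within a single lane thus rests on few samples of one depot. Of 3600 genes called with at least a 2-fold difference within lane 1, 3590 had the same sign in lane 2, and of 5211 such genes in lane 2, 5182 had the same sign in lane 1. Of the 3600, 3291 were also called with that sign in lane 2, and of the 5211, 3844 in lane 1. Over all 19279 genes tested in both lanes, called or not, 89.2% had the same sign. Lane 1 alone gave 3452 calls higher in iWAT adipocytes and 3848 higher in eWAT adipocytes, and lane 2 alone gave 5007 and 4916.

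**Figure D1:**
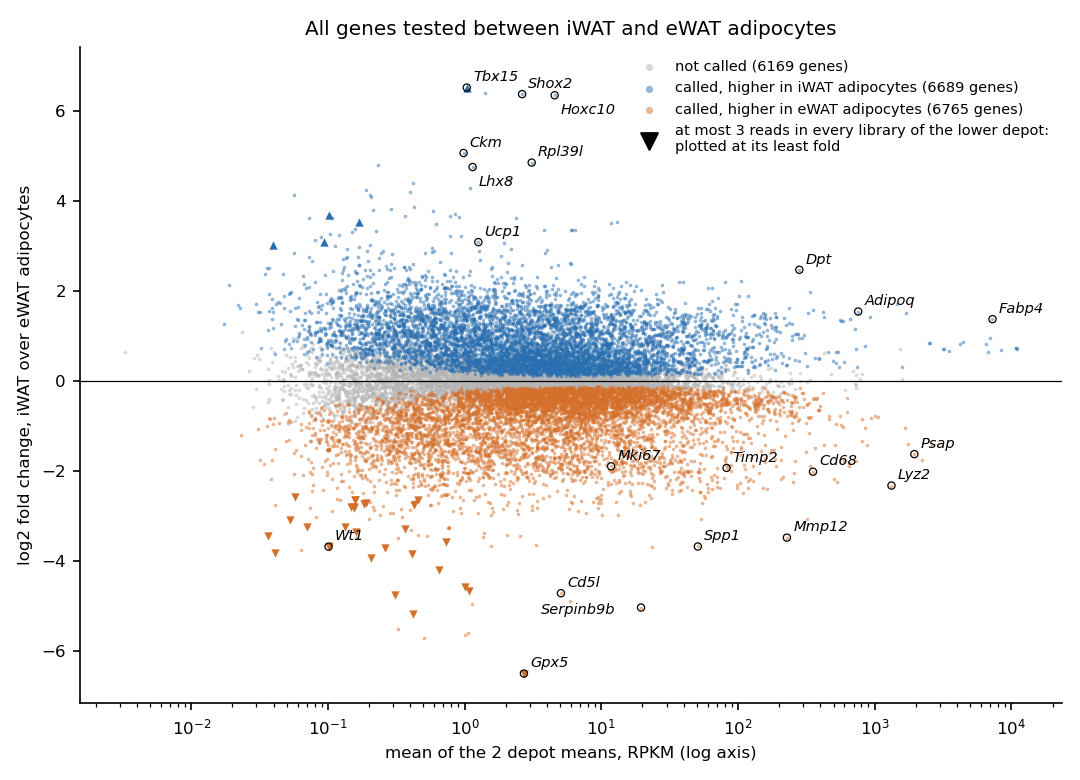
Each point is one of the 19623 genes tested, with the mean of the depot means in RPKM on a log x axis and the log2 fold change of iWAT over eWAT adipocytes on the y axis. Blue and orange points were called in edgeR's test, and a few named genes are circled. The blue cloud (6689 genes) and the orange cloud (6765 genes) are close to equal in size, and genes such as Tbx15, Shox2 and Hoxc10 lie far above the rest.

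Adipocyte markers were detected in all 12 libraries, at different levels in the depots. Summed over 14 adipocyte genes, the level was 14240 to 20680 RPKM in iWAT adipocytes and 3049 to 9502 RPKM in eWAT adipocytes. Macrophage markers ran the other way, with a sum over 17 genes of 967 to 1819 RPKM in iWAT adipocytes and 5180 to 7787 RPKM in eWAT adipocytes. The eWAT adipocytes of mice 1 and 3 had the lowest adipocyte sums (4134 and 3049 RPKM) and the highest macrophage sums (7630 and 7787 RPKM). In bulk samples such as these, fewer cells of a type and less RNA of that type per cell cannot be told apart. The part that the mix of cells plays in the differences below was not tested, but the values of the marker lists are given beside the genes that move with them.

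**Figure D2:**
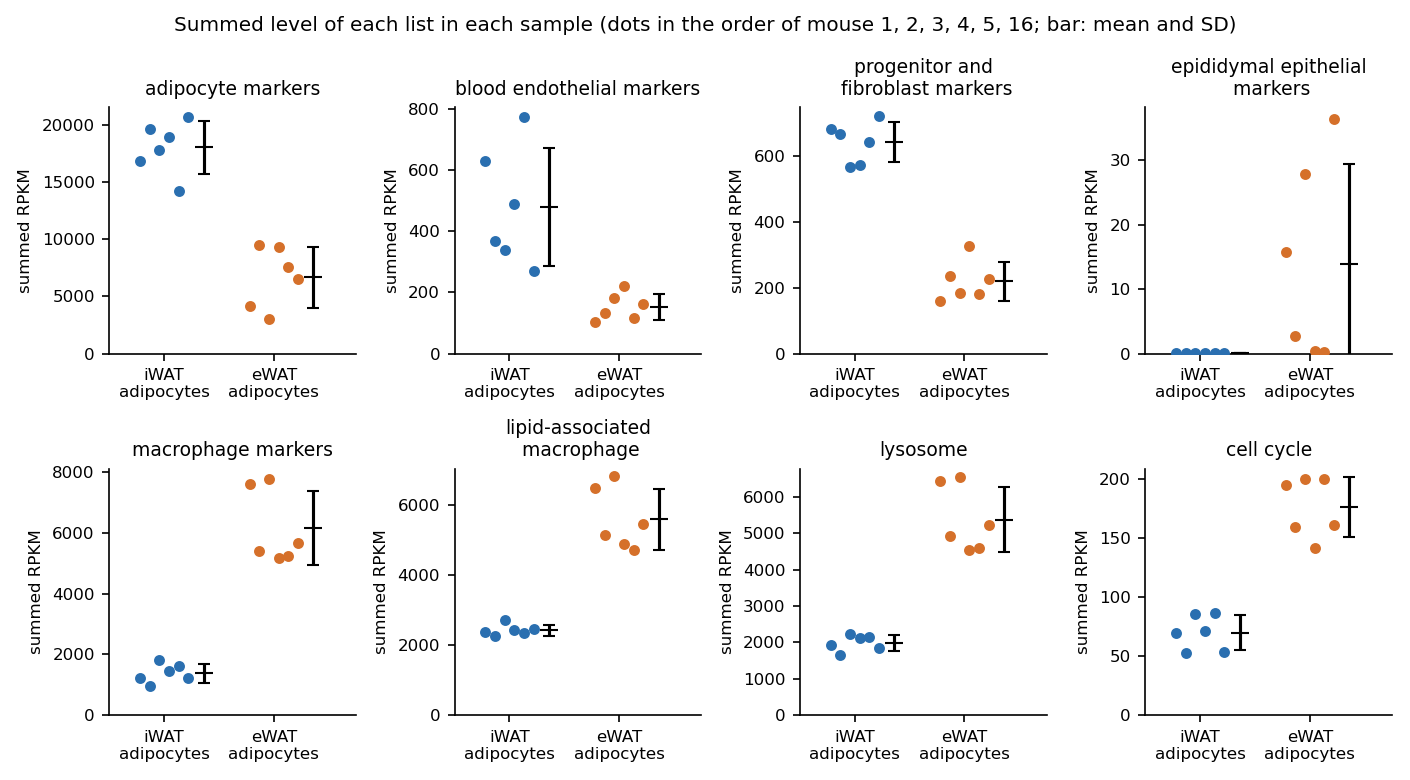
Dots give the summed RPKM of 8 gene lists in each of the 6 iWAT and 6 eWAT adipocyte samples, in the order of mouse 1, 2, 3, 4, 5 and 16, and bars give the mean and SD, cut at 0 in the epididymal panel. Adipocyte sums of iWAT (14240 to 20680) lie above all eWAT sums (3049 to 9502), macrophage sums lie in the reverse order, and epididymal sums are high in eWAT mice 1, 3 and 16 only.

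Hox genes, which encode the transcription factors that assign position along the body axis, were almost uniformly higher in iWAT adipocytes. Of 39 listed Hox genes, 27 could be tested, and 26 of these were called higher in iWAT and 0 in eWAT adipocytes. The remaining tested member, Hoxc4, had a log2 fold change of 0.39. The median log2 fold change of the tested members was 1.60. Hoxc10, Hoxa9 and Hoxa10 reached the mean of 10 reads through the iWAT samples alone, with at most 12 reads in any eWAT library. Their direction was fixed by the filter, so the count of 26 is no result for them. The 12 members that could not be tested had a mean of fewer than 10 reads, and 4 of the 39 had no reads in any of the 12 libraries. Each lane alone gave most of these calls, with 23 in lane 1 and 24 in lane 2.

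The difference was very unequal among the members. Levels of single genes are given as the lowest, median and highest of 6 mice, folds are from the edgeR fit, and ± is the standard error of the log2 fold change of iWAT over eWAT. Hoxc10 (mm9 chr15:102797223-102802324) was 7.34, 8.66 and 11.5 RPKM in iWAT adipocytes and 0.0127, 0.141 and 0.17 RPKM in eWAT adipocytes, a difference of 82.1-fold (log2 6.36 ± 0.29, adjusted p = 3.35e-08). Hoxa9 (chr6:52173099-52181088) was 2.29, 2.65 and 3.87 RPKM in iWAT adipocytes and 0.0159, 0.0231 and 0.0602 RPKM in eWAT adipocytes, a difference of 85.7-fold (log2 6.42 ± 0.26, adjusted p = 1.25e-08). Hoxa10, its neighbour at chr6:52181196-52190860, was 2.66, 3.31 and 3.7 RPKM in iWAT adipocytes and 0, 0.0259 and 0.0717 RPKM in eWAT adipocytes, a difference of 109-fold (log2 6.77 ± 0.38, adjusted p = 1.21e-07). These 3 genes of the posterior groups were close to absent from eWAT adipocytes, with at most 12 reads in any library, and no eWAT value reached the iWAT range. Since the filter fixed their direction, their adjusted p-values and separate ranges lend it no support.

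Other Hox genes were expressed in both depots. Hoxc8 was 26.8, 33 and 36.2 RPKM in iWAT adipocytes and 3.38, 11.8 and 14.4 RPKM in eWAT adipocytes, a difference of 3.24-fold (log2 1.70 ± 0.32, adjusted p = 4.04e-04). Hoxc6 was 7.59, 8.64 and 10.7 RPKM in iWAT adipocytes and 1.32, 3.17 and 4.79 RPKM in eWAT adipocytes, a difference of 3.06-fold (log2 1.61 ± 0.27, adjusted p = 1.51e-04). Neither gene overlapped between depots, but their folds were of the size of those of the adipocyte markers, and the eWAT adipocytes of mice 1 and 3, which had the lowest summed adipocyte markers, had the lowest levels of both. Among the tested genes of the anterior groups 1 to 4, log2 fold changes ran from 0.39 (Hoxc4) to 1.71 (Hoxa3), and among those of groups 5 to 8 from 0.82 (Hoxa5) to 2.44 (Hoxa7). Beside Hoxa9, group 9 held Hoxc9 (3.08 log2), Hoxd9 (1.80) and Hoxb9 (1.55), and the last pair lay close to Hoxa3. The rows of Hoxa3, Hoxa5 and Hoxa7 overlap other rows, so that their reads are uncertain.

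Among 30 other transcription factors known for patterning, 20 were tested, of which 15 were called higher in iWAT and 2 in eWAT adipocytes, with a median log2 fold change of 1.60. Tbx15 (chr3:99044304-99158183), a T-box factor of trunk and limb mesenchyme, was 1.65, 2.06 and 2.56 RPKM in iWAT adipocytes and 0, 0.0162 and 0.0239 RPKM in eWAT adipocytes. With at most 3 reads in each eWAT library, it was at least 92.5-fold higher in iWAT adipocytes, in a direction fixed by the filter. A lower bound is used here and elsewhere where every library of a depot had at most 3 reads, and it takes 3 reads per library as the level of that depot. Shox2 (chr3:66775649-66785693), a homeobox gene of limb development, was 3.84, 5.27 and 6.08 RPKM in iWAT adipocytes and 0.0175, 0.0566 and 0.12 RPKM in eWAT adipocytes, a difference of 83.7-fold (log2 6.39 ± 0.26, adjusted p = 1.25e-08). Its row overlaps a row of Rsrc1, and reads of the pair cannot be separated with certainty. For both genes, the 6 iWAT samples were closely grouped and the eWAT samples were near 0.

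Most other tested members of this list were higher in iWAT adipocytes as well. Irx2 was at least 11.6-fold higher in iWAT adipocytes and Tbx5 at least 8.52-fold, both at low levels and in a direction fixed by the filter. Irx1 (4.81 log2), En1 (4.09), Irx5 (2.31) and Irx3 (0.62) were also higher in iWAT adipocytes. Meox2, a homeobox gene of somites and vessels, was 12.1, 16.9 and 27.5 RPKM in iWAT adipocytes and 2.17, 3.94 and 6.84 RPKM in eWAT adipocytes, a difference of 4.48-fold (log2 2.16 ± 0.26, adjusted p = 1.21e-05). Twist1, a regulator of mesenchymal precursors, was 11.3, 11.7 and 12.9 RPKM in iWAT adipocytes and 2.15, 4.26 and 5.92 RPKM in eWAT adipocytes, a difference of 3.1-fold (log2 1.63 ± 0.21, adjusted p = 1.76e-05). Twist1 varied little among the iWAT samples, whereas in eWAT adipocytes it was lowest in mice 1 and 3. The 2 members higher in eWAT adipocytes were Wt1, the Wilms tumour factor of visceral mesothelium and its descendants, and Foxp2. Wt1 was at least 12.8-fold higher in eWAT adipocytes, with at most 1 read in any iWAT library, so that the filter fixed its direction. Its level in eWAT adipocytes was only 0.201 RPKM ± 0.0955 (SD, n = 6). Foxp2 had a log2 fold change of -2.75. Osr1, Prrx1 and Gata6 were not called.

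**Figure D3:**
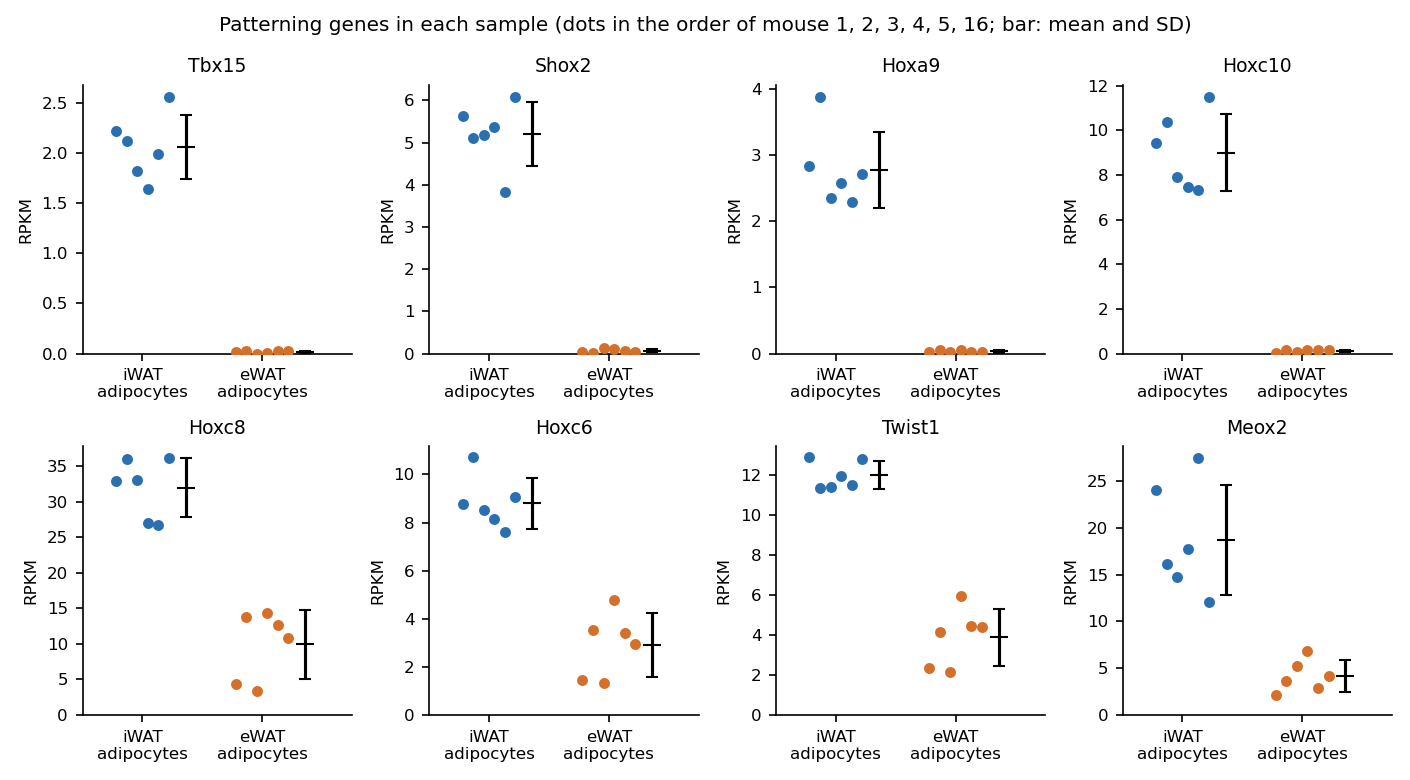
Dots give the RPKM of 8 patterning genes in each sample, in the order of mouse 1, 2, 3, 4, 5 and 16, and bars give the mean and SD of 6 samples of each depot. Tbx15, Shox2, Hoxa9 and Hoxc10 are near 0 in all eWAT samples, whereas Hoxc8, Hoxc6, Twist1 and Meox2 are present in both depots and lower in eWAT.

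All 14 adipocyte markers were called higher in iWAT adipocytes, by a median log2 fold change of 1.50, and 8 of them were called within lane 1 and 14 within lane 2. Plin1 (perilipin 1, the coat protein of the lipid droplet) was 278, 349 and 418 RPKM in iWAT adipocytes and 50.5, 127 and 178 RPKM in eWAT adipocytes, a difference of 3.09-fold (log2 1.63 ± 0.28, adjusted p = 2.01e-04). Adipoq (adiponectin) was 840.2, 1135 and 1297 RPKM in iWAT adipocytes and 149.9, 422 and 579 RPKM in eWAT adipocytes, a difference of 2.93-fold (log2 1.55 ± 0.30, adjusted p = 5.15e-04). Fabp4, the abundant fatty acid binding protein of adipocytes, was 8616, 10570 and 12050 RPKM in iWAT adipocytes and 1995, 4063 and 5994 RPKM in eWAT adipocytes, a difference of 2.6-fold (log2 1.38 ± 0.25, adjusted p = 2.72e-04). None of these 3 genes overlapped between depots, and each was lowest in the eWAT adipocytes of mice 1 and 3. Adipoq's row overlaps that of a transcript named AK018896. Car3, a carbonic anhydrase of fat and muscle, was 1549, 2319 and 2694 RPKM in iWAT adipocytes and 245, 741 and 1157 RPKM in eWAT adipocytes, a difference of 3.31-fold (log2 1.73 ± 0.33, adjusted p = 4.74e-04).

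Of 20 tested genes for proteins secreted by adipocytes, 15 were higher in iWAT and 2 in eWAT adipocytes (median log2 fold change 1.26). Lep (leptin, the satiety hormone) was 737, 853 and 928 RPKM in iWAT adipocytes and 134, 359 and 495 RPKM in eWAT adipocytes, a difference of 2.52-fold (log2 1.33 ± 0.28, adjusted p = 8.99e-04). Retn (resistin) was 116, 179 and 224 RPKM in iWAT adipocytes and 10.2, 41.6 and 58.3 RPKM in eWAT adipocytes, a difference of 4.68-fold (log2 2.23 ± 0.38, adjusted p = 1.91e-04). Cfd (adipsin, a protease of the complement system) was 341, 544 and 708 RPKM in iWAT adipocytes and 43.7, 167 and 202 RPKM in eWAT adipocytes, a difference of 3.96-fold (log2 1.99 ± 0.38, adjusted p = 4.69e-04). All 3 were separate between depots. Apln (apelin, a peptide hormone) had a low level and the largest fold of the list, at 3.97, 7.28 and 13.9 RPKM in iWAT adipocytes and 0.741, 1.38 and 1.76 RPKM in eWAT adipocytes, a difference of 6.02-fold (log2 2.59 ± 0.29, adjusted p = 6.31e-06). The 2 members higher in eWAT adipocytes were Lcn2 (lipocalin 2, -0.84 log2), an iron-binding protein that is also made by macrophages and neutrophils, and Nampt (-0.38), an enzyme of NAD synthesis. Agt and Igf1 were among the members not called.

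Genes of lipid synthesis and storage were mostly higher in iWAT adipocytes, with clear exceptions. Of 19 genes of fatty acid synthesis, 14 were higher in iWAT and 1 in eWAT adipocytes (median log2 fold change 0.95). Scd1, the desaturase that makes oleate, was 1660, 2457 and 3599 RPKM in iWAT adipocytes and 288, 949.6 and 1368 RPKM in eWAT adipocytes, a difference of 2.85-fold (log2 1.51 ± 0.35, adjusted p = 0.00193). Pnpla3, a lipid droplet protein induced by carbohydrate feeding, was 17.4, 25.2 and 29.1 RPKM in iWAT adipocytes and 2.31, 8.47 and 11.1 RPKM in eWAT adipocytes, a difference of 3.45-fold (log2 1.79 ± 0.33, adjusted p = 3.31e-04). Slc25a1, the carrier that exports citrate from mitochondria, was 105, 151 and 171 RPKM in iWAT adipocytes and 37.9, 70.4 and 88.2 RPKM in eWAT adipocytes, a difference of 2.22-fold (log2 1.15 ± 0.21, adjusted p = 3.52e-04). Each of these had separate ranges in the depots. The rate-limiting carboxylase Acaca (0.75 log2) and the synthase Fasn (0.94) were higher in iWAT adipocytes by less than 2-fold. The exceptions were Fads1, a desaturase of polyunsaturated fatty acids, which was higher in eWAT adipocytes (-1.20 log2), and Acly, Elovl5, Elovl6 and Fads2, which were not called.

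For triglyceride synthesis and droplet proteins, 16 of 19 tested genes were higher in iWAT and 2 in eWAT adipocytes (median 1.31). Dgat2, which catalyses the last step of triglyceride synthesis, was 746, 929 and 1170 RPKM in iWAT adipocytes and 146, 412 and 526 RPKM in eWAT adipocytes, a difference of 2.61-fold (log2 1.38 ± 0.30, adjusted p = 0.00121). Pck1, which supplies glycerol-3-phosphate in fat, was 98.6, 130.4 and 170.3 RPKM in iWAT adipocytes and 11.1, 29.9 and 42.9 RPKM in eWAT adipocytes, a difference of 4.62-fold (log2 2.21 ± 0.27, adjusted p = 1.37e-05). Cidec, which drives the growth of droplets, was 751, 999.8 and 1229 RPKM in iWAT adipocytes and 182, 508 and 639 RPKM in eWAT adipocytes, a difference of 2.23-fold (log2 1.16 ± 0.28, adjusted p = 0.00262). The ranges did not overlap for any of the 3. The 2 genes higher in eWAT adipocytes were Lpin2 (-1.38 log2), a phosphatidate phosphatase, and Plin2 (-0.93), a droplet coat protein found in many cell types including macrophages. Within lane 1 alone, 7 genes of this list and 4 of fatty acid synthesis were called higher in iWAT adipocytes.

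Of 14 lipolysis genes, 11 were higher in iWAT and 0 in eWAT adipocytes (median 1.34). Pnpla2 (adipose triglyceride lipase, the first lipase of the pathway) was 217, 327 and 384 RPKM in iWAT adipocytes and 75.6, 146 and 186 RPKM in eWAT adipocytes, a difference of 2.38-fold (log2 1.25 ± 0.22, adjusted p = 2.47e-04). G0s2, an inhibitor of that lipase, was 116, 136 and 243 RPKM in iWAT adipocytes and 24.6, 46.6 and 76.7 RPKM in eWAT adipocytes, a difference of 3.28-fold (log2 1.71 ± 0.29, adjusted p = 1.67e-04), and Aqp7, the channel that releases glycerol, was 35.5, 38.7 and 43.5 RPKM in iWAT adipocytes and 7.27, 12.8 and 16.4 RPKM in eWAT adipocytes, a difference of 3.29-fold (log2 1.72 ± 0.17, adjusted p = 2e-06). So the lipase and its inhibitor were higher in the same depot, and neither overlapped. G0s2's row overlaps another row. Lipe (hormone-sensitive lipase, 1.47 log2) and Mgll (monoglyceride lipase, 1.42) were higher in iWAT adipocytes too. Adrb1 was higher by 1.83 log2 units, but the adrenergic receptors Adrb3 and Adra2a were not called, with log2 fold changes of 0.80 and 0.62.

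Fatty acid uptake genes did not move as a group, with 5 of 11 higher in iWAT adipocytes, 1 in eWAT adipocytes and a median of 0.17. Cd36, the fatty acid translocase, was 513, 551 and 571 RPKM in iWAT adipocytes and 582, 691 and 822 RPKM in eWAT adipocytes, a difference of 1.28-fold (log2 -0.36 ± 0.11, adjusted p = 0.0106). It was thus higher in eWAT adipocytes, unlike the adipocyte markers, and macrophages are known to express it as well. Without the eWAT adipocytes of mice 1, 3 and 16, Cd36 was not called (log2 -0.25, adjusted p = 0.0711). Gpihbp1, which holds lipoprotein lipase on capillary walls and is made by endothelial cells, was 23.6, 43 and 65.5 RPKM in iWAT adipocytes and 7.57, 10.4 and 13.4 RPKM in eWAT adipocytes, a difference of 4.4-fold (log2 2.14 ± 0.23, adjusted p = 3.89e-06). Lpl itself was not called (0.17 log2). Of 17 genes of insulin signalling and glucose uptake, 13 were higher in iWAT and 3 in eWAT adipocytes (median 0.83). Slc2a4 (GLUT4, the insulin-regulated glucose transporter) was 12.2, 18 and 23.3 RPKM in iWAT adipocytes and 1.56, 5.22 and 8.25 RPKM in eWAT adipocytes, a difference of 3.79-fold (log2 1.92 ± 0.31, adjusted p = 1.34e-04). Grb14, an inhibitor of the insulin receptor, was 9.01, 12.4 and 16.1 RPKM in iWAT adipocytes and 1.67, 3.8 and 5.76 RPKM in eWAT adipocytes, a difference of 3.54-fold (log2 1.82 ± 0.28, adjusted p = 8.11e-05). The depots did not overlap for either gene. The 3 genes higher in eWAT adipocytes were Slc2a1 (GLUT1, the glucose transporter of most cells, -1.39 log2), Ptpn1 (-1.36), a phosphatase of the insulin receptor, and Akt1 (-0.75). Akt2, the form of that kinase that adipocytes use most, was higher in iWAT adipocytes (1.02 log2).

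Mitochondrial genes were also higher in iWAT adipocytes, at smaller folds. Of 77 nuclear genes for oxidative phosphorylation subunits, 63 were higher in iWAT and 2 in eWAT adipocytes, but the median log2 fold change was 0.37 and only Cox8b reached 1 log2 unit. Cox8b, the muscle and brown fat form of a cytochrome oxidase subunit, was 19.8, 27.5 and 33.1 RPKM in iWAT adipocytes and 3.15, 6.02 and 12.2 RPKM in eWAT adipocytes, a difference of 4.02-fold (log2 2.01 ± 0.31, adjusted p = 8.53e-05). Cox8a, its form in other tissues, was 186, 235 and 248 RPKM in iWAT adipocytes and 121, 160.0 and 193 RPKM in eWAT adipocytes, a difference of 1.48-fold (log2 0.57 ± 0.12, adjusted p = 0.0012). The ranges of Cox8a met between the depots and those of Cox8b did not. The count of 63 was 35 without the eWAT adipocytes of mice 1, 3 and 16, 27 within lane 1 and 44 within lane 2. Over all genes, calls higher in iWAT adipocytes fell as well, from 6689 to 5202, 3452 and 5007 under the same settings. Cox4i1 (0.36 log2) was not called without the eWAT adipocytes of those 3 mice (adjusted p = 0.0849). The 2 subunits higher in eWAT adipocytes were Atp5g1 (-0.52) and Atp5g2 (-0.30), which encode the same ring protein of ATP synthase, while Atp5g3, another gene for it, was higher in iWAT adipocytes (0.77).

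For the subunits encoded in the mitochondrial genome, 7 of the 13 matched a symbol of the files, and all 7 were higher in iWAT adipocytes (median 0.73), with 0 called within lane 1 and 3 within lane 2. COX3, a cytochrome oxidase subunit, was 8370, 10340 and 12360 RPKM in iWAT adipocytes and 4899, 6650 and 7268 RPKM in eWAT adipocytes, a difference of 1.61-fold (log2 0.69 ± 0.15, adjusted p = 0.00138). COX2 was 10470, 13560 and 16430 RPKM in iWAT adipocytes and 5821, 8470 and 9514 RPKM in eWAT adipocytes, a difference of 1.66-fold (log2 0.73 ± 0.19, adjusted p = 0.00457). The eWAT adipocytes of mouse 3 had the lowest COX3 of all 12 samples. The rows of COX3 and COX2 lie on chromosome 1, on a nuclear copy of mitochondrial sequence, and overlap the rows LOC100503946 and LOC100503984, which had some of the largest differences in RPKM, so the level of any one of them is uncertain. ND5 and ND6, whose rows lie on the mitochondrial genome and overlap each other, differed by 0.86 and 0.86 log2 units.

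Of 20 fatty acid oxidation genes, 18 were higher in iWAT and 1 in eWAT adipocytes (median 0.88). Acadm, the medium-chain dehydrogenase, was 72, 102 and 112 RPKM in iWAT adipocytes and 30.2, 47.8 and 63.7 RPKM in eWAT adipocytes, a difference of 2.06-fold (log2 1.04 ± 0.18, adjusted p = 2.35e-04). Cpt1b, the muscle and brown fat form of the transferase that admits fatty acids to mitochondria, was 2.57, 2.84 and 3.26 RPKM in iWAT adipocytes and 0.581, 1 and 1.2 RPKM in eWAT adipocytes, a difference of 3.03-fold (log2 1.60 ± 0.15, adjusted p = 1.68e-06), although its row overlaps that of Chkb. The member higher in eWAT adipocytes was Cpt1a (-0.47 log2), the form of that transferase used by most other cells. Both forms thus lay on opposite sides of zero. Of 21 genes for the breakdown of branched-chain amino acids, 20 were higher in iWAT and 1 in eWAT adipocytes (median 1.04), the latter 0 when the eWAT adipocytes of mice 1, 3 and 16 were left out. Hibch, which acts in valine breakdown, was 6.58, 9.11 and 10.7 RPKM in iWAT adipocytes and 1.63, 3.6 and 4.5 RPKM in eWAT adipocytes, a difference of 2.67-fold (log2 1.42 ± 0.22, adjusted p = 1.07e-04). Bckdha, a subunit of the committed dehydrogenase, was 30.7, 42.4 and 46.8 RPKM in iWAT adipocytes and 14.7, 19.8 and 25.7 RPKM in eWAT adipocytes, a difference of 2.1-fold (log2 1.07 ± 0.15, adjusted p = 3.99e-05). The kinase that inhibits this dehydrogenase, Bckdk, differed less (0.18 log2).

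Glycolysis and the citric acid cycle were split. Of 32 genes, 22 were higher in iWAT and 6 in eWAT adipocytes (median 0.62). All 6 of the latter act in glycolysis: Pkm (-1.12 log2), Hk1 (-0.66), Pgk1 (-0.49), Gpi1 (-0.48), Pgam1 (-0.43) and Pfkp (-0.26). Every called citric acid cycle enzyme was higher in iWAT adipocytes, for example Cs (0.78) and Idh3a (1.17). Ldhb, the lactate dehydrogenase form of oxidative tissues, was 7.11, 9.57 and 10.4 RPKM in iWAT adipocytes and 1.61, 3.19 and 4.11 RPKM in eWAT adipocytes, a difference of 3.06-fold (log2 1.61 ± 0.20, adjusted p = 1.63e-05). Pgam1 was 73.4, 84.3 and 87.4 RPKM in iWAT adipocytes and 100, 111 and 126 RPKM in eWAT adipocytes, a difference of 1.35-fold (log2 -0.43 ± 0.07, adjusted p = 2.12e-04). Neither range overlapped. Gapdh, Eno1 and Tpi1, which have near-identical copies elsewhere in the genome, were not called and are uncertain.

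Genes of brown and beige adipocytes were divided too. Of 24 listed, 19 were tested, with 13 higher in iWAT and 4 in eWAT adipocytes (median 1.52). Ucp1 (chr8:85814247-85822355), the proton channel that produces heat, was 1.54, 2.1 and 2.98 RPKM in iWAT adipocytes and 0.123, 0.259 and 0.37 RPKM in eWAT adipocytes, a difference of 8.54-fold (log2 3.09 ± 0.24, adjusted p = 3.97e-07). The 6 iWAT samples were all above the eWAT samples, and all 12 were low beside a mean of 1858 RPKM in the whole BAT samples. Cidea, a droplet protein of brown fat, was 5.49, 7.47 and 7.8 RPKM in iWAT adipocytes and 0.347, 0.882 and 1.81 RPKM in eWAT adipocytes, a difference of 7.52-fold (log2 2.91 ± 0.30, adjusted p = 3.01e-06), and its row overlaps B430212C06Rik. Lhx8, a homeobox gene used as a marker of brown fat, was 1.51, 2.28 and 2.67 RPKM in iWAT adipocytes and 0, 0.0851 and 0.152 RPKM in eWAT adipocytes, a difference of 27.2-fold (log2 4.76 ± 0.39, adjusted p = 5.93e-07). Lhx8 was thus near 0 in eWAT adipocytes, with at most 13 reads in any library, so its direction was fixed by the filter. Whole BAT had a mean of 0.368 RPKM of Lhx8, below the lowest iWAT sample. The regulators Prdm16 (1.83 log2, overlapping another row), Ppargc1a (1.70), Ppara (1.52) and Ebf2 (1.17) were higher in iWAT adipocytes as well. Dio2, the deiodinase of active brown fat, was not called (0.02).

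The 4 members of this list that were higher in eWAT adipocytes included the creatine genes Ckb and Gatm. Ckb, the brain form of creatine kinase, was 15.6, 21.5 and 23.8 RPKM in iWAT adipocytes and 73.5, 101 and 143 RPKM in eWAT adipocytes, a difference of 5.26-fold (log2 -2.40 ± 0.15, adjusted p = 1.84e-07). Gatm (-2.04 log2), which makes the precursor of creatine, Tmem26 (-1.69) and Epsti1 (-1.55) were the other members, and Gatm's row overlaps another. All 4 had separate ranges. These genes rose in the depot with the higher macrophage sums, and the part of macrophages in their level was not tested.

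Endocrine, imprinted and clock genes gave smaller sets. Of 9 tested steroid hormone receptors and enzymes, 5 were higher in iWAT and 2 in eWAT adipocytes (median 0.42). Hsd11b1, which regenerates active glucocorticoid, was 6.77, 9.54 and 12.7 RPKM in iWAT adipocytes and 1.22, 2.57 and 3.8 RPKM in eWAT adipocytes, a difference of 3.83-fold (log2 1.94 ± 0.27, adjusted p = 4.26e-05), with a row that overlaps Lamb3. Nr3c2 (the mineralocorticoid receptor) was 1.89, 2.33 and 2.46 RPKM in iWAT adipocytes and 0.533, 0.725 and 1.26 RPKM in eWAT adipocytes, a difference of 2.74-fold (log2 1.45 ± 0.18, adjusted p = 1.54e-05). Both were separate between the depots. The oestrogen receptor Esr1 was higher in iWAT adipocytes (0.69 log2), while Sult1e1, which inactivates oestrogens, was higher in eWAT adipocytes (-2.77). The other member higher in eWAT adipocytes, Srd5a1, had a log2 fold change of -0.38, and 1 of these 2 was called without the eWAT adipocytes of mouse 16.

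Of 13 tested imprinted genes linked to growth, 9 were higher in iWAT and 2 in eWAT adipocytes (median 1.35). Mest, known to track the expansion of fat cells, was 168, 194 and 302 RPKM in iWAT adipocytes and 31.6, 81.5 and 136 RPKM in eWAT adipocytes, a difference of 2.66-fold (log2 1.41 ± 0.33, adjusted p = 0.00205). Nnat was 140.2, 188 and 226 RPKM in iWAT adipocytes and 19.4, 53.9 and 78.3 RPKM in eWAT adipocytes, a difference of 3.73-fold (log2 1.90 ± 0.29, adjusted p = 8.58e-05). Peg3 was 8.75, 11.2 and 14.5 RPKM in iWAT adipocytes and 1.53, 3.97 and 5.39 RPKM in eWAT adipocytes, a difference of 3.24-fold (log2 1.69 ± 0.27, adjusted p = 1.01e-04). All 3 are expressed from the paternal allele, their rows overlap rows of other genes, and their ranges did not overlap between depots. Maternally expressed Igf2r (-1.28 log2) and Cdkn1c (-0.89) were the members higher in eWAT adipocytes, of which 1 was called without the eWAT adipocytes of mice 1, 3 and 16. Grb10, which is also maternally expressed in fat, was higher in iWAT adipocytes (1.34).

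Of 17 clock genes, 10 were higher in iWAT and 3 in eWAT adipocytes (median 0.47). Hlf, an output factor of the clock, was 1.16, 1.35 and 1.74 RPKM in iWAT adipocytes and 0.131, 0.176 and 0.28 RPKM in eWAT adipocytes, a difference of 7.2-fold (log2 2.85 ± 0.20, adjusted p = 2.28e-07). Npas2, a partner of Arntl, was 0.216, 0.264 and 0.446 RPKM in iWAT adipocytes and 0.812, 1.53 and 1.94 RPKM in eWAT adipocytes, a difference of 4.82-fold (log2 -2.27 ± 0.22, adjusted p = 2.06e-06). They were the widest differences of the list, in opposite directions. The repressors Per3 (1.12 log2), Cry2 (1.38) and Nr1d1 (1.02) were higher in iWAT adipocytes, and Arntl (-0.36) was higher in eWAT adipocytes. The time of day at which each depot was taken is not given in the sources used here.

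Cholesterol synthesis and uptake leaned to eWAT adipocytes, with 11 of 22 tested genes higher there, 6 higher in iWAT adipocytes and a median of -0.17. Srebf2, the regulator of the pathway (-1.02 log2), and Sqle, which encodes squalene epoxidase (-1.04), were higher in eWAT adipocytes. Sc5d, a late enzyme, was higher in iWAT adipocytes at 27.7, 35.3 and 41 RPKM in iWAT adipocytes and 9.53, 19.3 and 22.5 RPKM in eWAT adipocytes, a difference of 2.04-fold (log2 1.03 ± 0.19, adjusted p = 4.07e-04). Fdft1 (-1.32 log2) has a row that overlaps Ctsb, a gene that was itself higher in eWAT adipocytes, and is uncertain.

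Macrophage genes showed the reverse of the adipocyte pattern. All 17 macrophage markers were called higher in eWAT adipocytes, with a median log2 fold change of -2.12, and 16 of them had ranges that did not overlap. Cd68, a lysosomal membrane protein of macrophages, was 101, 138 and 185 RPKM in iWAT adipocytes and 457, 544 and 681 RPKM in eWAT adipocytes, a difference of 4.03-fold (log2 -2.01 ± 0.16, adjusted p = 4.07e-07). Emr1 (the F4/80 antigen) was 14.7, 22 and 30.7 RPKM in iWAT adipocytes and 87.9, 98.8 and 138 RPKM in eWAT adipocytes, a difference of 4.59-fold (log2 -2.20 ± 0.17, adjusted p = 4.01e-07). Lyz2 (lysozyme) was 298, 426 and 598 RPKM in iWAT adipocytes and 1691, 1953 and 3022 RPKM in eWAT adipocytes, a difference of 4.99-fold (log2 -2.32 ± 0.20, adjusted p = 7.04e-07). Each of the 3 was well above 0 in the iWAT adipocytes too. Itgam was 7.92, 11.3 and 15.2 RPKM in iWAT adipocytes and 46.4, 58.1 and 82.7 RPKM in eWAT adipocytes, a difference of 5.46-fold (log2 -2.45 ± 0.19, adjusted p = 4.55e-07), and Cd14, the co-receptor for endotoxin, was 15.8, 21.9 and 34.3 RPKM in iWAT adipocytes and 103, 121 and 160.0 RPKM in eWAT adipocytes, a difference of 5.2-fold (log2 -2.38 ± 0.19, adjusted p = 5.4e-07). The resident-type markers Cd163 (-0.60 log2) and Mertk (-0.85) differed least. Lane 1 and lane 2 each gave 16 of the 17 calls.

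Genes of lipid-associated macrophages, a state known from obese fat, included the widest differences of this kind. Of 16 genes, 13 were higher in eWAT adipocytes and 1 in iWAT adipocytes, with a median of -1.80. Spp1 (osteopontin, chr5:104864130-104870072) was 5.35, 6.61 and 10.5 RPKM in iWAT adipocytes and 59.5, 101 and 123 RPKM in eWAT adipocytes, a difference of 12.8-fold (log2 -3.67 ± 0.22, adjusted p = 1.7e-07). Mmp12 (macrophage elastase, chr9:7344381-7369499) was 31.6, 36.2 and 45.3 RPKM in iWAT adipocytes and 157, 402 and 647 RPKM in eWAT adipocytes, a difference of 11.2-fold (log2 -3.48 ± 0.28, adjusted p = 4.8e-07). Gpnmb (chr6:48986517-49020928), a glycoprotein of lipid-laden macrophages, was 46.9, 68 and 89.6 RPKM in iWAT adipocytes and 407, 518 and 766 RPKM in eWAT adipocytes, a difference of 8.38-fold (log2 -3.07 ± 0.21, adjusted p = 2.3e-07). In all 3, the lowest eWAT sample was several times the highest iWAT sample. Itgax (-2.46 log2) and Trem2 (-2.29), a lipid receptor of these cells, were higher in eWAT adipocytes as well. Apoe and Fabp5 were not called, and Acp5, whose row overlaps another, was higher in iWAT adipocytes (0.54).

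Short stretches of promoter are shown for 5 of these macrophage genes because the letters GAGGAAG, the core to which the myeloid factor PU.1 binds, occur in them on either strand. The sequences are those of the RefSeq annotation of GRCm38.p6, on the strand of the gene from 5′ to 3′, and capitals mark the match. The windows lie at chr5:104434986-104435016 (Spp1, + strand), chr9:7344298-7344328 (Mmp12, +), chr17:48346348-48346378 (Trem2, +), chr7:128062544-128062574 (Itgam, +) and chr3:96294007-96294037 (Fcgr1, - strand), and CTTCCTC is the same core on the other strand.
Spp1: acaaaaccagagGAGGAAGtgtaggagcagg
Mmp12: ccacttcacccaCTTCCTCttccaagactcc
Trem2: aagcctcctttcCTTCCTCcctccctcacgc
Itgam: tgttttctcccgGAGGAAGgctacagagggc
Fcgr1: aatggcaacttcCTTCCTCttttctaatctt

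The core occurred in 250 bases before to 50 bases after the start of 15.4% of 27025 genes, and of 16.5% of the 10008 tested genes that had a promoter in the table. It occurred in 22.9% of genes called and at least 2-fold higher in eWAT adipocytes (277 of 1211) and in 18% of those higher in iWAT adipocytes (246 of 1364). Of the macrophage markers with a promoter, 5 of 12 held it, as did 5 of 13 lipid-associated macrophage genes and 3 of 11 adipocyte markers. The share was as high in lists that were mostly higher in iWAT adipocytes, with 4 of 9 blood endothelial markers and 8 of 18 other patterning factors. A match describes letters and was not measured as binding.

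Lysosomal genes were higher in eWAT adipocytes in 26 of 27 cases and in iWAT adipocytes in 0, with a median of -1.28, and Scarb2 was not called. Psap, the precursor of lipid-degrading activators, was 743, 988 and 1102 RPKM in iWAT adipocytes and 2345, 2799 and 3636 RPKM in eWAT adipocytes, a difference of 3.08-fold (log2 -1.62 ± 0.15, adjusted p = 1.36e-06). Ctsk (cathepsin K) was 24.6, 39.3 and 52.4 RPKM in iWAT adipocytes and 112, 185 and 274 RPKM in eWAT adipocytes, a difference of 5.18-fold (log2 -2.37 ± 0.22, adjusted p = 1.29e-06). Psap was among the 5 genes with the largest excess of RPKM in eWAT adipocytes, and the depots overlapped in neither gene. Lamp1, the most abundant lysosomal membrane protein, was 180.1, 191 and 202 RPKM in iWAT adipocytes and 314, 338 and 419 RPKM in eWAT adipocytes, a smaller difference of 1.86-fold (log2 -0.89 ± 0.09, adjusted p = 2.54e-06). The palindrome CACGTG, the E-box read by the lysosomal regulator TFEB and by clock factors, is shown for Lamp1 because it occurs 3 times within a short stretch of its promoter. The windows lie at chr8:13159088-13159117, chr8:13159104-13159133 and chr8:13159121-13159150 of GRCm38.p6 (+ strand) and overlap one another.
Lamp1, most upstream: agggcaagatatCACGTGgtccagcgccca
Lamp1, middle: tggtccagcgccCACGTGatgccgactggc
Lamp1, most downstream: gatgccgactggCACGTGaccacatcacgt

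This E-box occurred in 8.09% of all genes with a promoter, in 11.5% of those tested, in 10.7% of genes called and at least 2-fold higher in eWAT adipocytes and in 8.94% of those higher in iWAT adipocytes. It occurred in 6 of 20 lysosomal genes and 5 of 15 clock genes, and at higher shares in 5 of 11 lipolysis genes, 3 of 6 dendritic cell markers and 2 of 5 lymphatic markers.

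Antigen presentation and cytokines were mixed by class. All 8 tested MHC class II genes were higher in eWAT adipocytes (median -1.18), in each lane alone as well. Cd74, the invariant chain, was 153, 177 and 257 RPKM in iWAT adipocytes and 446, 521 and 637 RPKM in eWAT adipocytes, a difference of 2.8-fold (log2 -1.49 ± 0.14, adjusted p = 1.33e-06). Of 28 chemokines and cytokines, 17 were higher in eWAT adipocytes and 5 in iWAT adipocytes (median -0.86). Il1b was 2.89, 3.82 and 9.04 RPKM in iWAT adipocytes and 19.6, 24.4 and 51.5 RPKM in eWAT adipocytes, a difference of 6.51-fold (log2 -2.70 ± 0.32, adjusted p = 9.67e-06). Cxcl2, which attracts neutrophils, was 62.4, 84.3 and 162 RPKM in iWAT adipocytes and 196, 260.1 and 562 RPKM in eWAT adipocytes, a difference of 3.35-fold (log2 -1.75 ± 0.29, adjusted p = 1.67e-04). Tnf (-1.43 log2), Il10 (-1.66) and Ccl3 (-1.90) were higher in eWAT adipocytes too, whereas Ccl2 and Il6 were not called (-0.38 and 0.01). Nos2 (inducible nitric oxide synthase, used as a marker of activated macrophages) went the other way, at 1.33, 2.4 and 4.09 RPKM in iWAT adipocytes and 0.377, 0.513 and 0.939 RPKM in eWAT adipocytes, a difference of 4.63-fold (log2 2.21 ± 0.28, adjusted p = 1.65e-05). Cxcl9 (1.83 log2), Cxcl10 (1.17, overlapping another row), Cxcl12 (1.16) and Ccl11 (0.69) were the other genes higher in iWAT adipocytes. Among the iWAT samples, Nos2 had the same order as the endothelial marker Cdh5. It rose from mouse 16 (1.33 RPKM, with 62.5 of Cdh5) to mouse 5 (4.09, with 177 of Cdh5), and did not have the order of Cd68. Whole BAT had means of 1.41 RPKM of Nos2 and 3.11 RPKM of Cd68. The cells that Nos2 came from were not tested.

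Interferon-stimulated genes were mostly higher in iWAT adipocytes, as Cxcl9 and Cxcl10 were, with 12 of 16 higher there, 2 in eWAT adipocytes and a median of 0.68. Ifit3 was 12.6, 13.1 and 17.5 RPKM in iWAT adipocytes and 3.64, 5.88 and 7.07 RPKM in eWAT adipocytes, a difference of 2.54-fold (log2 1.35 ± 0.16, adjusted p = 1.15e-05), and the ranges were separate. Ifi44 (1.54 log2), Mx2 (1.14) and Irf7 (0.71) were higher in iWAT adipocytes, and Oas1a (-1.08) and Oasl2 (-0.62) in eWAT adipocytes.

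Markers of other leukocytes had low levels. Of 6 tested dendritic cell markers, 4 were higher in iWAT adipocytes, including Zbtb46 (1.46 log2) and Ccr7 (1.53), and Batf3 was higher in eWAT adipocytes (-1.24). The T cell marker Cd3e had at most 0.0574 RPKM in any sample and was not tested, and of 5 tested T and NK cell markers Lck (1.22) was higher in iWAT adipocytes and Foxp3 and Klrb1c in eWAT adipocytes. The row of Foxp3 overlaps rows of Ccdc22 and Ppp1r3f, so that its reads are uncertain. Lck was not called with mouse as a replicate block. The B cell marker Cd79a was too low to test as well, and of 3 tested B cell markers 2 were higher in iWAT adipocytes, including Ms4a1 (1.75). Without the iWAT adipocytes of mouse 5, 1 of these 2 was called. Of 6 tested neutrophil and mast cell markers, Kit (1.81) was higher in iWAT adipocytes and Csf3r (-1.37) in eWAT adipocytes. Kit had the order of Cdh5 among the iWAT samples, as Nos2 had, and the cells it came from were not tested.

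Cell cycle genes were higher in eWAT adipocytes without exception. All 28 were called, with a median of -1.41, and none of the 28 overlapped between depots. Mki67, a marker of cycling cells, was 3.42, 4.33 and 7.14 RPKM in iWAT adipocytes and 14.3, 18.3 and 25 RPKM in eWAT adipocytes, a difference of 3.71-fold (log2 -1.89 ± 0.19, adjusted p = 2.81e-06). Top2a, a topoisomerase of dividing cells, was 1.2, 1.87 and 2.58 RPKM in iWAT adipocytes and 4.49, 6.02 and 7.32 RPKM in eWAT adipocytes, a difference of 3.14-fold (log2 -1.65 ± 0.17, adjusted p = 3.3e-06). Pcna, the clamp of DNA replication, was 9.63, 14 and 16.9 RPKM in iWAT adipocytes and 26.6, 29.1 and 38.4 RPKM in eWAT adipocytes, a difference of 2.3-fold (log2 -1.20 ± 0.12, adjusted p = 3.12e-06), with a row that overlaps another. All were low in the floated adipocytes of both depots, at 52.5 to 86.2 RPKM summed over the list in iWAT adipocytes and 142 to 199.9 RPKM in eWAT adipocytes. Log2 fold changes of the 28 genes ran from -0.55 (Tyms, thymidylate synthase) to -1.89 (Mki67). Lane 1 alone gave 27 and lane 2 alone gave 28 of the calls. The macrophage sums moved in the same direction (967 to 1819 against 5180 to 7787 RPKM), and whether the cycling cells were macrophages was not tested.

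Vascular genes were higher in iWAT adipocytes. Of 15 blood endothelial markers, 14 were higher in iWAT adipocytes, 0 in eWAT adipocytes, and Vwf was not called, with a median of 1.66. Cdh5 (VE-cadherin) was 62.5, 99.3 and 177 RPKM in iWAT adipocytes and 21.1, 29.7 and 44.4 RPKM in eWAT adipocytes, a difference of 3.58-fold (log2 1.84 ± 0.26, adjusted p = 4.53e-05). Kdr (the main VEGF receptor) was 13.7, 20.1 and 35.3 RPKM in iWAT adipocytes and 3.45, 5.1 and 7.24 RPKM in eWAT adipocytes, a difference of 4.32-fold (log2 2.11 ± 0.25, adjusted p = 1.07e-05). Cldn5, a tight junction protein of endothelium, was 85.6, 129 and 242 RPKM in iWAT adipocytes and 27.5, 44.5 and 78 RPKM in eWAT adipocytes, a difference of 2.98-fold (log2 1.58 ± 0.26, adjusted p = 1.61e-04). The iWAT samples spread widely, with mice 1 and 5 highest in the sum over the list, but for these 3 genes they stayed above the eWAT samples. Of 11 tested mural cell markers, 10 were higher in iWAT and 0 in eWAT adipocytes (median 1.46). Rgs5, a pericyte marker, was 53.9, 76 and 189 RPKM in iWAT adipocytes and 13, 23.6 and 37.4 RPKM in eWAT adipocytes, a difference of 4.21-fold (log2 2.08 ± 0.33, adjusted p = 1.15e-04). Of the lymphatic markers, Flt4 (1.75 log2) and Reln (1.53) were higher in iWAT adipocytes, 1 of them without the eWAT adipocytes of mice 1, 3 and 16, and Lyve1 (-0.86) was higher in eWAT adipocytes. Pdpn, which macrophages and mesothelium are also known to express, was 1.42, 1.93 and 3.66 RPKM in iWAT adipocytes and 13.7, 16.8 and 19.4 RPKM in eWAT adipocytes, a difference of 7.01-fold (log2 -2.81 ± 0.21, adjusted p = 3.4e-07).

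Stromal genes did not move together. Of 16 progenitor and fibroblast markers, 6 were higher in iWAT and 4 in eWAT adipocytes (median -0.02), and the defining marker Pdgfra was not called (-0.47 log2, adjusted p = 0.192) at 0.359, 0.604 and 1.53 RPKM in iWAT adipocytes and 0.676, 1.02 and 1.57 RPKM in eWAT adipocytes. Dpt (dermatopontin, a matrix protein) was far more abundant than the rest, at 393, 458 and 592 RPKM in iWAT adipocytes and 41.9, 79.5 and 161 RPKM in eWAT adipocytes, a difference of 5.57-fold (log2 2.48 ± 0.31, adjusted p = 1.57e-05). Cd55, a marker of early progenitors, was 4.85, 5.72 and 6.42 RPKM in iWAT adipocytes and 1.26, 2.2 and 2.99 RPKM in eWAT adipocytes, a difference of 2.74-fold (log2 1.45 ± 0.20, adjusted p = 2.93e-05). Icam1 (-1.10 log2) and Mfap5 (-1.14) were higher in eWAT adipocytes.

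Of 32 extracellular matrix genes, 16 were higher in iWAT and 4 in eWAT adipocytes (median 0.59). Sparc, a matrix glycoprotein, was 753, 788 and 883 RPKM in iWAT adipocytes and 176, 344 and 426 RPKM in eWAT adipocytes, a difference of 2.58-fold (log2 1.37 ± 0.23, adjusted p = 1.44e-04). Col4a1, a chain of basement membrane collagen, was 161, 184 and 252 RPKM in iWAT adipocytes and 53.5, 85.9 and 118 RPKM in eWAT adipocytes, a difference of 2.29-fold (log2 1.20 ± 0.18, adjusted p = 7.15e-05), with a row that overlaps Col4a2. The fibrillar collagen genes Col1a1, Col1a2 and Col3a1 were not called (0.08, -0.15 and 0.21 log2). The inhibitors of matrix proteases were divided, with Timp3 higher in iWAT adipocytes (1.64) and Timp2 higher in eWAT adipocytes at 22.9, 35.5 and 47.2 RPKM in iWAT adipocytes and 108, 122 and 169.9 RPKM in eWAT adipocytes, a difference of 3.8-fold (log2 -1.93 ± 0.16, adjusted p = 5.3e-07). Timp1 (-1.85), Col14a1 (-1.54) and Fn1 (-1.24) were higher in eWAT adipocytes as well.

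Markers of mesothelium and epididymis were low and differed between depots, and the source of these transcripts was not tested. Of 7 tested mesothelial markers, 5 were higher in eWAT adipocytes and Cldn15 was higher in iWAT adipocytes (2.21 log2). Msln (mesothelin) was at least 7.05-fold, Krt8 at least 6.65-fold and Upk1b at least 6.57-fold higher in eWAT adipocytes, at means under 0.4 RPKM. With at most 2 reads in any iWAT library, Msln, Krt8 and Upk1b reached the mean of 10 reads through the eWAT samples alone. Their direction was fixed by the filter, so the count of 5 of 7 is no result for them. Without the eWAT adipocytes of mouse 16, 2 of the 5 genes higher in eWAT adipocytes were called. Of 11 epididymal markers, 6 reached the mean of 10 reads, all through the eWAT samples alone, so that their direction was fixed by the filter and their number is no result. Gpx5, a secreted peroxidase of the epididymis, was at least 90.6-fold higher in the mean of the eWAT samples. That mean came from mice 1, 3 and 16 (6.01, 14.0 and 12.5 RPKM). The eWAT adipocytes of mice 2, 4 and 5 had at most 0.0176 RPKM of Gpx5, within the iWAT range. The list summed to 15.7, 27.9 and 36.3 RPKM in the eWAT adipocytes of mice 1, 3 and 16, to 2.78 RPKM in mouse 2, and to 0.36 and 0.167 RPKM in mice 4 and 5, beside at most 0.119 RPKM in any iWAT sample. Without the eWAT adipocytes of mice 1, 3 and 16, 0 of the 6 were called. Mice 1 and 3 are also those with the lowest summed adipocyte markers among the eWAT samples.

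In iWAT adipocytes, skeletal muscle, nerve and blood genes were higher. Of 11 tested skeletal muscle markers, 7 were higher in iWAT and 0 in eWAT adipocytes (median 1.64). Ckm (muscle creatine kinase) was 0.234, 2.29 and 3.12 RPKM in iWAT adipocytes and 0.0418, 0.0505 and 0.0687 RPKM in eWAT adipocytes, a difference of 33.7-fold (log2 5.08 ± 0.68), with a row that overlaps another, and Myh4 was at least 12.9-fold higher. Ckm had at most 4 reads and Myh4 at most 1 read in any eWAT library. Both reached the mean of 10 reads through the iWAT samples alone. Their direction was fixed by the filter, so the count of 7 is no result for them. Of 6 tested Schwann cell markers, 4 were higher in iWAT adipocytes (median 1.91), including the adhesion gene Cdh19 (3.81 log2). Ckm varied more than 10-fold among the iWAT samples. All 5 tested erythroid genes were higher in iWAT adipocytes (median 1.01), but their ranges overlapped, and 1 was called with mouse as a replicate block, 2 without the iWAT adipocytes of mouse 5 and 0 within lane 2. Keratin 14, a marker of skin and mammary epithelium, was at 0 in all iWAT samples, and the only tested member of the 11 markers of these epithelia, Trp63, was higher in iWAT adipocytes (1.39 log2).

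Stress-related lists were divided between the depots. Of 18 genes of endoplasmic reticulum stress, 7 were higher in iWAT and 8 in eWAT adipocytes (median 0.02). Chaperones such as Calr (-0.74 log2), Hsp90b1 (-0.69) and Sdf2l1 (-1.57) were higher in eWAT adipocytes, while Ddit3 (0.56), Asns (0.66) and Chac1 (0.98), targets of the factor ATF4, were higher in iWAT adipocytes. The count in iWAT adipocytes was 4 without the eWAT adipocytes of mice 1, 3 and 16, and Chac1 was then not called (adjusted p = 0.198). Of 14 hypoxia-responsive genes, 5 were higher in iWAT and 6 in eWAT adipocytes (median 0.05). Adm (adrenomedullin) was 15.2, 21.9 and 26.8 RPKM in iWAT adipocytes and 3.46, 6.5 and 8.2 RPKM in eWAT adipocytes, a difference of 3.53-fold (log2 1.82 ± 0.21, adjusted p = 7.2e-06). Car9 was 0.316, 0.429 and 0.503 RPKM in iWAT adipocytes and 1.15, 1.53 and 2.02 RPKM in eWAT adipocytes, a difference of 3.81-fold (log2 -1.93 ± 0.17, adjusted p = 1.1e-06), with a row that overlaps Tpm2. These 2 known targets of the same factor differed in opposite directions. Of 19 immediate early genes, which rise within minutes of tissue handling, 8 were higher in iWAT and 3 in eWAT adipocytes (median 0.15). Egr1 was 295, 334 and 587 RPKM in iWAT adipocytes and 127, 188 and 231 RPKM in eWAT adipocytes, a difference of 2.07-fold (log2 1.05 ± 0.17, adjusted p = 1.50e-04), whereas Fosb and Junb were not called. With all 18 samples in a single fit, 5 of these genes were higher in iWAT and 0 in eWAT adipocytes.

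Since adipocyte and macrophage sums differed between the depots, named genes were also expressed as ratios to a marker in the same library, which was chosen after the data had been seen. Genes of the adipocyte lists were divided by Plin1 and genes of the macrophage, lysosome, cytokine and cell cycle lists by Cd68. Ratios were compared by a two-sided exact permutation test over the 924 ways of dividing 12 samples, whose smallest p is 0.00216, and p-values were adjusted over all 65 ratios. Of 44 ratios to Plin1, 8 were higher in iWAT and 16 in eWAT adipocytes. Ratios were formed only for named genes, most of them picked as called genes of large change or high level in these samples. No share over all genes was computed, so the counts of ratios are no result about the lists. Hoxa9 and Shox2 stayed far higher in iWAT adipocytes, by 4.86 and 4.85 log2 units (exact permutation, adjusted p = 0.00521 for both). The filter had fixed the direction of both genes before the division. Ucp1 was higher in iWAT adipocytes by 1.41 log2 units per Plin1 (exact permutation, adjusted p = 0.0156) and Cidea by 1.35 (adjusted p = 0.00521). Retn was higher by 0.69 (exact permutation, adjusted p = 0.0124). In contrast, the ratios of Adipoq (-0.05), Hoxc6 (-0.01), Hoxc8 (0.14), Twist1 (-0.04) and Scd1 (-0.09) had ranges that overlapped and adjusted p-values of at least 0.273 in the exact permutation test, which does not show that they were equal. Tbx15, Hoxa10 and Lhx8 had 0 reads in a library and were left out.

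Plin1 itself differed by 1.63 log2 units, so division by it moved every gene toward eWAT adipocytes by about that much. By this shift alone, genes with a smaller fold turned, and genes already higher in eWAT adipocytes widened. The values that follow thus restate the folds given above beside that of Plin1. The ratio of Ckb was higher in eWAT adipocytes by 4.12 log2 units and that of Cd36 by 2.11 (exact permutation, adjusted p = 0.00521 for both). Among genes for mitochondrial proteins, Cox4i1 (-1.40 log2 units), Cox8a (-1.18) and Acadm (-0.68) were higher in eWAT adipocytes per Plin1, although their levels were higher in iWAT adipocytes (exact permutation, adjusted p = 0.00521 for each). Cox8b was higher in iWAT adipocytes per Plin1 by 0.42 (exact permutation, adjusted p = 0.0296), and Cpt1b (-0.12) and Hibch (-0.27) were not called (exact permutation, adjusted p = 0.618 and 0.0515). These genes are expressed in other cells as well, and how much of the ratio they contribute was not tested.

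Of 21 ratios to Cd68, 11 were higher in iWAT and 5 in eWAT adipocytes, again with no share over all genes to set beside them. Cd68 itself differed by -2.01 log2 units, so division by it moved every gene toward iWAT adipocytes by about that much. Spp1 and Mmp12 were higher in eWAT adipocytes also per Cd68, by 1.64 and 1.34 log2 units (exact permutation, adjusted p = 0.00521 and 0.0124). Itgam (-0.42 log2 units), Cd14 (-0.39) and Lyz2 (-0.29) were the others. Per Cd68, Nos2 was higher in iWAT adipocytes by 4.21 log2 units, Lamp1 by 1.14, Pcna by 0.81, Ctsb by 0.70 and Cd74 by 0.53 (exact permutation, adjusted p = 0.00521 for each). Whether Nos2 came from cells that express Cd68 was not tested. Mki67 (0.11) had overlapping ranges and was not called.

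**Figure D4:**
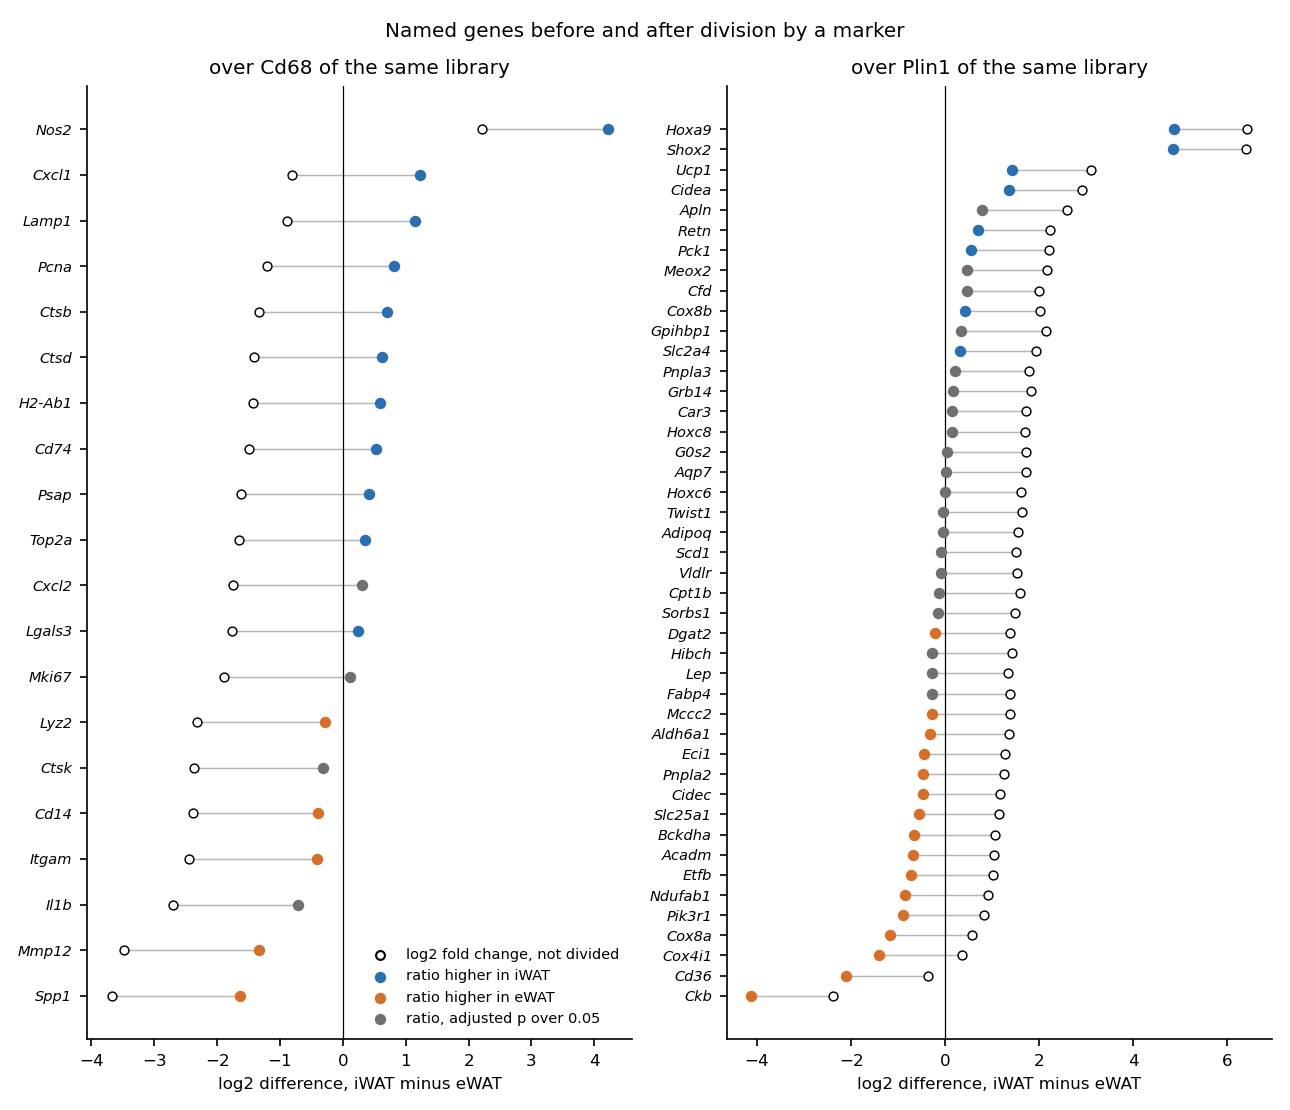
Open circles give the log2 fold change of named genes between iWAT and eWAT adipocytes, and filled circles give the log2 difference of their ratios to Cd68 (left panel) or Plin1 (right panel) in the same library, coloured by the exact permutation test. Hoxa9 and Shox2 keep a difference above 4 log2 units per Plin1, whereas Adipoq, Hoxc6 and Hoxc8 come close to 0.

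Some of the most changed genes belong to none of the lists. Among genes of at least 5 RPKM in the higher depot, those with the widest differences in iWAT adipocytes were Shox2, Hoxc10, Cidea, Rpl39l and 6 rows of the major urinary protein family. Rpl39l (chr16:10170319-10175004), a variant ribosomal protein, was 4.36, 6.36 and 7.23 RPKM in iWAT adipocytes and 0.0359, 0.192 and 0.38 RPKM in eWAT adipocytes, a difference of 29.1-fold (log2 4.86 ± 0.32, adjusted p = 1.84e-07). It had at most 13 reads in any eWAT library, so its direction was fixed by the filter. Mup7 (chr4:60079341-60083347), a secreted lipocalin that carries pheromones, was 10.8, 17.4 and 47.5 RPKM in iWAT adipocytes and 0.782, 1.92 and 2.66 RPKM in eWAT adipocytes, a difference of 11.5-fold (log2 3.53 ± 0.41, adjusted p = 7.83e-06). The iWAT adipocytes of mouse 3 were highest in Mup7, and Mup rows are near-identical copies that share reads, so that their number says nothing of how many of the genes were expressed.

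In eWAT adipocytes the corresponding genes were Serpinb9b, Cd5l, Clec4d, Spp1, Htr2b, Mmp12, Rnf128, Gpnmb, Mamdc2 and Prkcb. Serpinb9b, an inhibitor of granzymes, was 0.987, 1.11 and 1.44 RPKM in iWAT adipocytes and 4.25, 39.1 and 61.1 RPKM in eWAT adipocytes, a difference of 32.7-fold (log2 -5.03 ± 0.49, adjusted p = 1.79e-06). Cd5l, which macrophages secrete, was 0.133, 0.362 and 0.678 RPKM in iWAT adipocytes and 1.19, 9.03 and 20.4 RPKM in eWAT adipocytes, a difference of 26.2-fold (log2 -4.71 ± 0.59, adjusted p = 1.52e-05). Clec4d, a lectin receptor of myeloid cells, was 2.57, 3.35 and 4.17 RPKM in iWAT adipocytes and 13, 43.1 and 71.2 RPKM in eWAT adipocytes, a difference of 12.9-fold (log2 -3.69 ± 0.33, adjusted p = 1.03e-06). These 3 varied more than 5-fold among the eWAT samples, yet each eWAT sample was above the iWAT samples. Htr2b, a serotonin receptor, was less variable, at 0.292, 0.479 and 0.637 RPKM in iWAT adipocytes and 4.67, 5.98 and 7.61 RPKM in eWAT adipocytes, a difference of 12.4-fold (log2 -3.64 ± 0.17, adjusted p = 3.35e-08), and its row overlaps Psmd1 and Armc9, as that of Serpinb9b overlaps AK133076. Prkcb, a protein kinase C of leukocytes, was 1.74, 2.2 and 3.1 RPKM in iWAT adipocytes and 9.92, 16.8 and 26 RPKM in eWAT adipocytes, a difference of 7.84-fold (log2 -2.97 ± 0.21, adjusted p = 2.99e-07). Rnf128 (a ubiquitin ligase) and Mamdc2 differed by -3.07 and -2.97 log2 units. Those of known cell type in this set, such as Cd5l, Clec4d and Gpnmb, are genes of macrophages, whose markers were higher in the same samples.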

How the data were processed

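RNA was measured in 12 samples of floated adipocytes (6 of iWAT, 6 of eWAT), grouped by the source name in the labels. Libraries were made with a NEBNext Ultra kit and mapped to mm9, and the submitters' processing notes name cutadapt 1.16 and HISAT2 2.1.0. The counting program is not given in the sources used here, nor is the treatment of strand or of reads that map to several places. The authors deposited, for each of 53445 transcript rows, a count of whole reads and an RPKM computed from it. For each of 52093 symbols (1220 with several rows) 1 row was kept, namely that of highest mean RPKM in the 18 samples.

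Counts were tested with edgeR 4.0.16 in R 4.3.3 (glmQLFit, glmQLFTest, TMM normalization, no covariate, two-sided) on the 19623 genes that averaged 10 or more reads, with Benjamini-Hochberg adjustment over all of these and a threshold of 0.05. Tables, figures and exact permutation tests used matplotlib 3.10.9, scipy 1.17.1, pandas 2.3.3 and numpy 2.4.6 in Python 3.11.15, and DESeq2 1.42.0 and limma 3.58.1 served as alternatives. The test was tested on simulated data before use. Depth (24655056 to 37438994 reads) limits genes with few reads, and bounds at 3 reads cover counting error only. A row was called overlapping when any part of it lies under a row of another symbol that has at least 10% of its mean reads.

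Single genes named with their levels were, by rule, the 10 widest changes and 5 largest RPKM differences in each depot, up to 4 called genes of each of 44 lists, and defining markers. Other list members were named after their values were seen, and some genes are not reported here by name. The members and lists were chosen with earlier results of these data known.

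Same-numbered samples were taken as coming from the same mouse, from the number in their titles. Deviations from the depot means correlated between same-numbered samples by -0.257 to 0.476 (mean 0.0056, against 0.0004 for other pairs), and 1 of 6 iWAT samples correlated best with the eWAT sample of its own number. No pair of samples of 1 depot was as alike as repeated sampling of a single library would be, since the lowest chi-square divided by its degrees of freedom was 15.7. Alternatives were the replicate block, lane as a covariate or each lane alone, DESeq2, no TMM, other filters (at least 1 read in 1 sample, or a mean of 50), limma on log2(RPKM + 0.1) or log2(RPKM + 1), summed rows, all 18 samples, an added log2 fold change of 1, and samples left out.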

Additional observations from a re-analysis of the deposited data

Results flagged for a closer look

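Single samples stood apart from the other 5 of their depot, by Dixon's test at the 95% level, in 26 of 336 gene and depot groups, where chance gives about 16.8. In the eWAT adipocytes of mouse 16, the haemoglobin and heme genes Hbb-b1 (133 RPKM), Hbb-b2 (137), Hba-a2 (7.86) and Alas2 (1.17) were the highest of the depot, as were the B cell gene Cd79a (0.205), the keratin Krt14 (0.424) and the epididymal gene Lcn5 (7.25). In the eWAT adipocytes of mouse 3, the heat shock genes Hspa1a (806 RPKM) and Hspa1b (677) were highest and COX3 (4899) was lowest. In the iWAT adipocytes of mouse 3, Mup7 (47.5 RPKM), Mup19 (26.2), Mup17 (24.9), Mup15 (24.1) and Mup2 (15.5), whose rows share reads, and Il1b (9.04) were highest. In the iWAT adipocytes of mouse 5, Egr1 (587 RPKM) was highest, and the mitochondrial genes Cox8a (186), Eci1 (33.5) and Bckdha (30.7) were lowest. In the iWAT adipocytes of mouse 2, G0s2 (243 RPKM) and Hoxa9 (3.87) were highest, and Msln was detected in that iWAT sample alone (0.0161). In the iWAT adipocytes of mouse 16, Scn7a (20.9 RPKM) was highest and Gpx5 (0.0192) was detected in that iWAT sample alone. In the iWAT adipocytes of mouse 1, Ifit3 (17.5 RPKM) was highest.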

How the results depend on the processing

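The numbers of genes called, in all and in each direction, stayed within 1.5 times under all alternatives except lane 1 alone and the added fold. They ranged from 9923 (lane 2 alone) to 14431 (at least 1 read in 1 sample). Within lane 1 alone, 7300 genes were called, 3452 higher in iWAT and 3848 in eWAT adipocytes. Either lane alone holds fewer samples than the full comparison. With a log2 fold change of at least 1 added, 4892 genes were called, 2552 and 2340. With mouse as a replicate block, 12836 genes were called (6332 and 6504), and the block ended the calls of Alas2, Hbb-b1, Hbb-b2 and Hspa1a (adjusted p = 0.0891, 0.0943, 0.0942 and 0.0507) and of no other named gene. Without TMM, 43.7% of calls were higher in iWAT adipocytes, against 49.7%. No named gene reversed under any of these alternatives, and 33 lost their call in lane 1 and 10 in lane 2. Hspa1a lost its call also with summed rows, all 18 samples, no TMM, or without iWAT mouse 5 or eWAT mouse 16, and Hspa1b in the last 4 of these. Leaving out eWAT mouse 16 gave 13037 calls, and leaving out eWAT mice 1, 3 and 16 gave 10714. These settings were chosen after seeing the data, and the second ended the calls of Cd36, Chac1, Cox4i1, Nfil3 and 1 other gene, while Gpx5, Lcn5 and Msln then fell under the mean of 10 reads and were not tested. Leaving out iWAT mouse 5 gave 13562 calls.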
